A study of Mus musculus with 18 samples.

Results

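The genes described here are 10 enzymes of fatty acid synthesis, elongation and desaturation: Acly, Acaca and Fasn (synthesis), Elovl1, Elovl5 and Elovl6 (elongases), Scd1 and Scd2 (stearoyl-CoA desaturases), and Fads1 and Fads2 (front-end desaturases). They were taken by symbol from the 54232 genes of the count table, and all 10 passed the filter on low counts in every comparison. Bulk RNA-seq was performed on LGs, 1 gland from each of 18 untreated male mice. BALB/cJ (BALB/c) served as the control strain and NOD.B10Sn-H2b/J (NOD.H-2b), a model of Sjögren's syndrome on the NOD background, as the diseased strain. Each strain was sampled at 2M, 4M and 6M, with 3 mice in each of the 6 groups. The strains differ across the whole genome, so the effects of disease and of genetic background cannot be told apart.

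In de novo synthesis, ATP citrate lyase (Acly) turns citrate into acetyl-CoA, acetyl-CoA carboxylase (Acaca) makes malonyl-CoA from it, and fatty acid synthase (Fasn) builds palmitate from both. Elongases of the Elovl family lengthen fatty acyl chains in the endoplasmic reticulum, Scd enzymes place the first double bond into saturated chains, and Fads1 and Fads2 add double bonds toward the carboxyl end of polyunsaturated acids taken from the diet. LG acinar cells secrete mainly protein, and like other secretory cells they need fatty acids for the membranes of their granules and endoplasmic reticulum.

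The genes had been chosen for their strain difference, with Fads2 said to rise in NOD.H-2b while the pathway falls. Among the 10 genes themselves, 5 were higher and 5 lower at 6M, and they were split by role: the 3 synthesis genes and both stearoyl-CoA desaturases were lower in every NOD.H-2b mouse than in any BALB/c mouse, and the 3 elongases and both front-end desaturases were higher. The groups overlapped for 0 of the 10 genes at 6M, for 5 at 4M and for 4 at 2M, while 64.6%, 55.4% and 53.4% of all genes tested did not overlap at these ages. Among the 10 genes, 4 were higher and 2 lower without overlap at 2M, 3 were higher and 2 lower at 4M, and 5 were higher and 5 lower at 6M. Of all genes tested, 25.3% were higher and 28% lower without overlap at 2M, 28.4% and 27% at 4M, and 31.3% and 33.4% at 6M. The median log2 fold change of the 10 genes was 0.20, 0.09 and -0.02 at the 3 ages, beside 0.01, 0 and 0 over all genes tested. These strain values chose the genes and are given as a description, with no test.

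**Figure D1:**
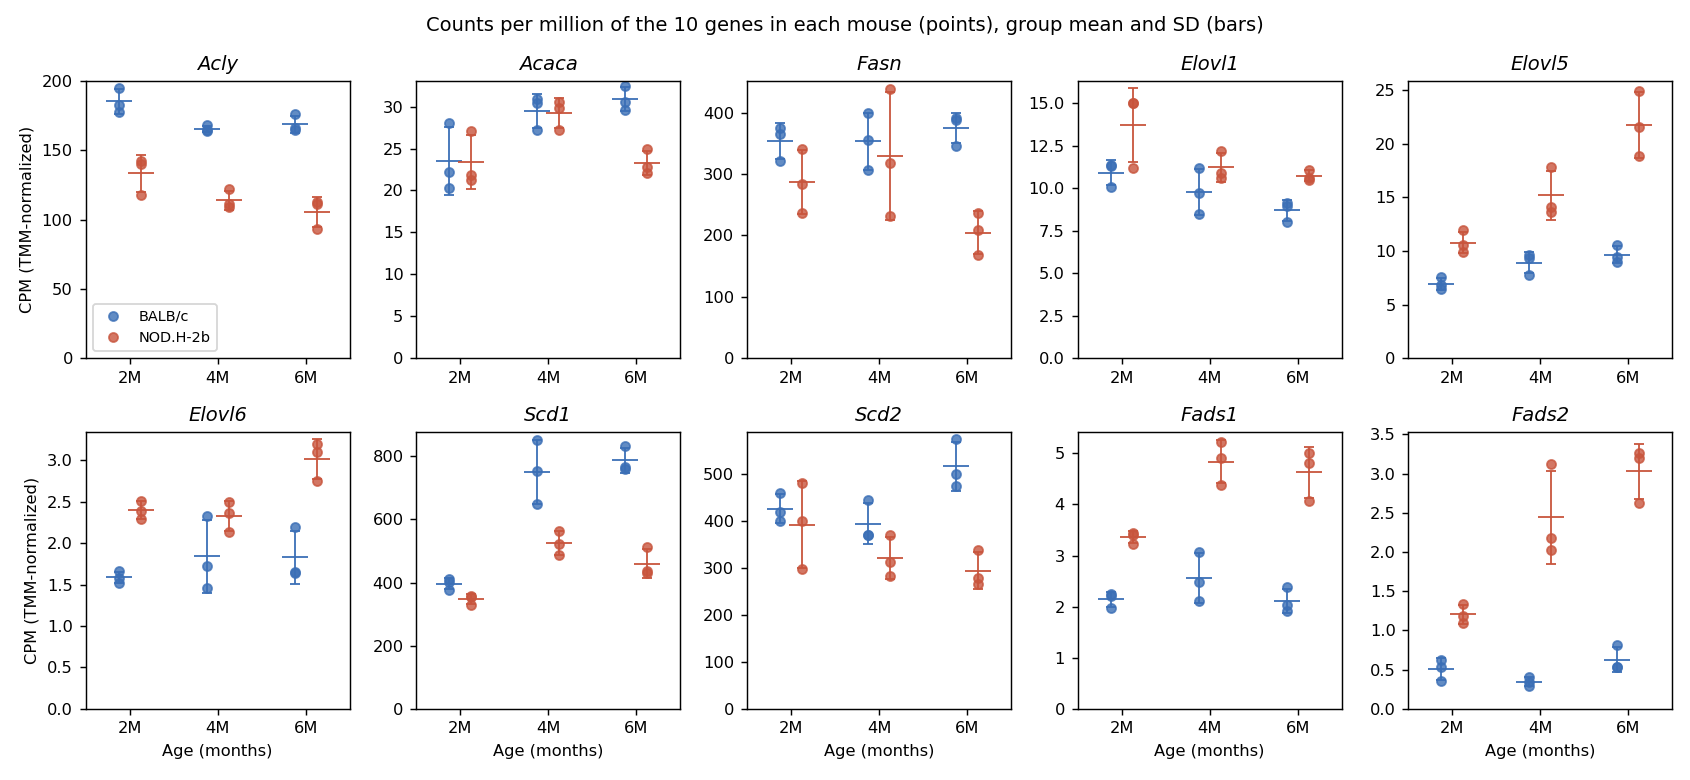
TMM-normalized CPM (y axis, from 0) of each of the 10 genes by age in months (x axis) in BALB/c (blue) and NOD.H-2b (red). Points are mice, 3 a group, and bars are the group mean and SD. At 6M the colors separate in every panel, with NOD.H-2b below BALB/c for Acly, Acaca, Fasn, Scd1 and Scd2 and above it for the other 5 genes.

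The genes were read at very different depths. On the scale of CPM per kb of exon, Scd1 was at 81 ± 3.58 and Scd2 at 77.9 ± 5.6 (SD, n = 3) in BALB/c at 2M, followed by Acly at 35.1 ± 1.73 and Fasn at 32.3 ± 2.65. Within each of these pairs the ranges of the mice overlapped (33.6 to 37 for Acly and 29.3 to 34.2 for Fasn), though Acly was above Fasn in each mouse. Elovl1 (4.01 ± 0.249), Elovl5 (1.97 ± 0.162) and Acaca (1.38 ± 0.235) came next. Fads1 (0.446 ± 0.0312), Elovl6 (0.247 ± 0.011) and Fads2 (0.153 ± 0.0427) were the lowest. In NOD.H-2b at 6M the order differed in the middle and at the end, with Elovl5 at 6.18 ± 0.867 above Elovl1 at 3.94 ± 0.112, and Fads2 at 0.919 ± 0.107 next to Fads1 at 0.962 ± 0.103, a pair that did not differ beyond its spread. The 10 genes together took between 0.109% and 0.175% of the counts of a mouse. Fads2 had between 16 and 50 counts in a BALB/c mouse, so its values carry more counting error than those of the other genes.

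Totals ranged from 49480781 to 103936830 counts per mouse, with 1 deep library (BALB/c 6M replicate 1) and the next at 67138830. Epithelial markers (25 genes such as Epcam and Krt8) summed to between 2240 and 2440 CPM in BALB/c at all ages, but in NOD.H-2b they summed to 2250 to 2540 at 2M, 1680 to 2130 at 4M and 1430 to 1750 at 6M. Of these 25 genes, 12 were called higher and 4 lower at 2M, 1 higher and 11 lower at 4M, and 3 higher and 16 lower at 6M, with a median log2 fold change of 0.23, -0.25 and -0.46. B cell markers (10 genes) summed to between 0.264 and 2.83 CPM in all BALB/c mice, and in NOD.H-2b mice they reached 2.02 to 38.4, 197 to 435 and 301 to 604 CPM with increasing age. T cell markers (10 genes) summed to at most 5.92 CPM in BALB/c and to 8.95 to 32.2, 66.5 to 118 and 75.3 to 105 CPM in NOD.H-2b at the same ages. Macrophage markers (10 genes) lay between 62.9 and 132 CPM in BALB/c and between 187 and 302 CPM in NOD.H-2b, and plasma cell markers (8 genes) between 594 and 842 and between 588 and 1210 CPM. Adipocyte markers (10 genes) summed to only 3.96 to 15.3 CPM in all mice, with a median log2 fold change of -0.11, -0.36 and -0.68 at the 3 ages over the 5 to 7 that could be tested. The 8 sebaceous and meibomian gland markers summed to 151 to 179 CPM in BALB/c and 243 to 321 CPM in NOD.H-2b. Nearly all of this was Soat1 (130 to 143 against 228 to 266 CPM at 6M) and Mc5r (31.6 to 35.4 against 14.5 to 17.1), while Elovl3 had no count in any mouse, Dgat2l6 at most 1 count and Awat1 at most 2, and skeletal muscle markers (8 genes) summed to at most 1.57 CPM. In whole glands, fewer cells of a type and less RNA per cell cannot be told apart, and the part of the epithelial and immune shifts in the values below was not tested.

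The synthesis genes were lower in NOD.H-2b at 6M, and Acly was lower at every age. Acly (ENSMUSG00000020917) lies on chromosome 11, at 100476353 to 100528000 on the minus strand of GRCm38. Its CPM was 178, 183 and 195 in BALB/c at 2M and 142, 118 and 140 in NOD.H-2b. At 4M it was 164, 165 and 168 against 111, 109 and 122, and at 6M it was 176, 165 and 166 against 93.3, 113 and 111. No NOD.H-2b mouse reached the lowest BALB/c mouse at any age. The strain difference of Acly in log2 fold change was -0.43 (SE 0.069) at 2M, -0.53 (SE 0.067) at 4M and -0.64 (SE 0.092) at 6M.

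Fasn (ENSMUSG00000025153, chromosome 11, 120805846 to 120824547, minus strand) varied more between mice. Its CPM was 366, 321 and 375 in BALB/c at 2M, against 340, 236 and 283 in NOD.H-2b, and at 4M it was 306, 356 and 399 against 231, 318 and 438. The strains overlapped at both ages. At 6M the BALB/c mice were at 391, 388 and 346 and the NOD.H-2b mice at 168, 237 and 208, all below. The strain difference was -0.26 (SE 0.13), -0.10 (SE 0.25) and -0.84 (SE 0.13) at the 3 ages.

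Acaca (ENSMUSG00000020532, chromosome 11, 84129672 to 84401651, plus strand), which encodes the enzyme of the committed step, differed least. Its CPM ranged from 20.3 to 28.1 in BALB/c and from 21.2 to 27.1 in NOD.H-2b at 2M, and from 27.2 to 30.9 and from 27.2 to 30.6 at 4M. At 6M it ranged from 29.6 to 32.4 in BALB/c and from 22.1 to 24.9 in NOD.H-2b, a log2 difference of -0.37 (SE 0.078). Of its 17256 exon windows of 75 bases, 26.8% occur in another gene as well, nearly all in the pseudogene Gm5182, which held 2 to 19 counts per mouse, so reads of the 2 could have been split.

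RefSeq promoters of GRCm38.p6 matched 7 of the 10 genes, in 8 windows of 250 bases. Fasn and Acly are shown as genes that were lower in NOD.H-2b at 6M, and Elovl1 as one that was higher. Capitals mark CCAAT (or ATTGG on the other strand) and the GC box GGGCGG (or CCGCCC). In Fasn a pair of CCAAT matches overlap, and in Elovl1 a GC box and the CCAAT overlap.
Fasn (chr11:120824548-120824797, minus strand): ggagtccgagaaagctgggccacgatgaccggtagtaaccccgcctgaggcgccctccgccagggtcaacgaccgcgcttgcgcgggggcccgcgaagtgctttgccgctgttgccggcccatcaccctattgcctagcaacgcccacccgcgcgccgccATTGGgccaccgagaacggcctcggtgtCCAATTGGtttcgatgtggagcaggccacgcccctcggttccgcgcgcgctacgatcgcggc
Acly (chr11:100528001-100528250, minus strand): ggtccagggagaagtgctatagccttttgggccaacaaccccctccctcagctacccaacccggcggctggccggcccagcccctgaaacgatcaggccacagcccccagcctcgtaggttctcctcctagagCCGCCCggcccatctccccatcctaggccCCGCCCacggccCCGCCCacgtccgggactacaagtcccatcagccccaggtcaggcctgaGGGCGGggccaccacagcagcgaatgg
Elovl1 (chr4:118427843-118428092, plus strand): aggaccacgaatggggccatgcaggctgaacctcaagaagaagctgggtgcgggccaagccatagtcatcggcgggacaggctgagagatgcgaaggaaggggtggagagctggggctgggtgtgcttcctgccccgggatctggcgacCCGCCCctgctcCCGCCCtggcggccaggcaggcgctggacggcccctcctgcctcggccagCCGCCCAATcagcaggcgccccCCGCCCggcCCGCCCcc
Fasn held 3 CCAAT matches and no GC box, Acly held 4 GC boxes and no CCAAT, and the Elovl1 window shown held 5 GC boxes and 1 CCAAT. A second window of Elovl1 (chr4:118429451-118429700), not shown, held 2 GC boxes and no CCAAT. Among the 8 windows, CCAAT was found in 3 and the GC box in 4, beside 33.8% and 32.7% of 32851 RefSeq promoters. The E-box CACGTG was found in 1 window, that of Elovl5 (6.02% of all promoters), and TCACCCC, a core of the sterol response element, in 0 windows (4.31%). These matches describe letters only.

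The 3 elongases were higher in NOD.H-2b in log2 fold change at all ages. Elovl5 (ENSMUSG00000032349, chromosome 9, 77917364 to 77984519, plus strand), which lengthens polyunsaturated chains, was at 6.82, 7.54 and 6.42 CPM in BALB/c at 2M and at 10.5, 11.9 and 9.93 in NOD.H-2b. At 4M it was at 7.78, 9.30 and 9.63 against 17.8, 13.6 and 14.1, and at 6M at 8.94, 10.5 and 9.47 against 24.9, 18.8 and 21.5. The strains did not overlap at any age. The strain difference was 0.68 (SE 0.10), 0.77 (SE 0.13) and 1.21 (SE 0.12) at the 3 ages.

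Elovl6 (ENSMUSG00000041220, chromosome 3, 129532355 to 129638495, plus strand) lengthens the palmitate that Fasn makes, and Elovl1 (ENSMUSG00000006390, chromosome 4, 118428093 to 118432953, plus strand) lengthens very long saturated chains. Elovl6 ranged from 1.52 to 1.66 CPM in BALB/c and from 2.29 to 2.51 in NOD.H-2b at 2M, from 1.46 to 2.33 and from 2.14 to 2.50 at 4M, and from 1.64 to 2.20 and from 2.75 to 3.20 at 6M. Its strain difference was 0.64 (SE 0.17), 0.35 (SE 0.22) and 0.76 (SE 0.18), with overlap at 4M. Elovl1 ranged from 10.1 to 11.4 CPM in BALB/c and from 11.2 to 15 in NOD.H-2b at 2M and overlapped there and at 4M. At 6M it ranged from 8.01 to 9.12 in BALB/c and from 10.5 to 11.1 in NOD.H-2b, a log2 difference of 0.34 (SE 0.099). An exon of Elovl1 overlaps the cell cycle gene Cdc20 on the other strand, which reached at most 3.46 CPM and was itself higher in NOD.H-2b (2.02 to 3.22 CPM at 6M, against 0.0644 to 1.12 in BALB/c), and reads from the overlap cannot be assigned without strand.

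The stearoyl-CoA desaturases were the most abundant of the 10 genes per kb of exon, and Scd1 was lower in NOD.H-2b at every age. Scd1 (ENSMUSG00000037071, minus strand, 44394455 to 44407879) and Scd2 (ENSMUSG00000025203, plus strand, 44293674 to 44306864) lie 87.6 kb apart on chromosome 19, with Scd4 between them. They share only a small part of their sequence: 3.15% of the 75-base windows of Scd1 and 1.78% of those of Scd2 occur in other genes, mostly of the Scd family. Scd1 was at 410, 402 and 377 CPM in BALB/c at 2M and at 357, 328 and 355 in NOD.H-2b. At 4M it was at 649, 851 and 752 against 488, 522 and 564, and at 6M at 761, 832 and 767 against 430, 513 and 435. No NOD.H-2b mouse reached the lowest BALB/c mouse of its age. The strain difference was -0.15 (SE 0.052), -0.51 (SE 0.10) and -0.74 (SE 0.11).

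Scd2 was at 459, 399 and 419 CPM in BALB/c at 2M, against 480, 297 and 400 in NOD.H-2b, and at 369, 444 and 369 against 282, 313 and 369 at 4M, with overlap at 2M and the lowest BALB/c and highest NOD.H-2b mice at the same level at 4M. At 6M it was at 574, 475 and 499 against 265, 339 and 278, without overlap. The strain difference was -0.08 (SE 0.18), -0.29 (SE 0.11) and -0.78 (SE 0.12).

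The ratio of Scd1 to Scd2, each per kb, moved with age in both strains. It was 0.999, 1.13 and 1 in BALB/c and 0.831, 1.23 and 0.99 in NOD.H-2b at 2M. At 4M it was 1.96, 2.14 and 2.28 in BALB/c and 1.93, 1.86 and 1.71 in NOD.H-2b, and at 6M 1.48, 1.95 and 1.72 and 1.82, 1.69 and 1.75. In both strains every mouse of 4M and 6M lay above every mouse of 2M, and at 2M and 6M the strains overlapped. The ratio was chosen after its values were seen and is given without a test.

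**Figure D2:**
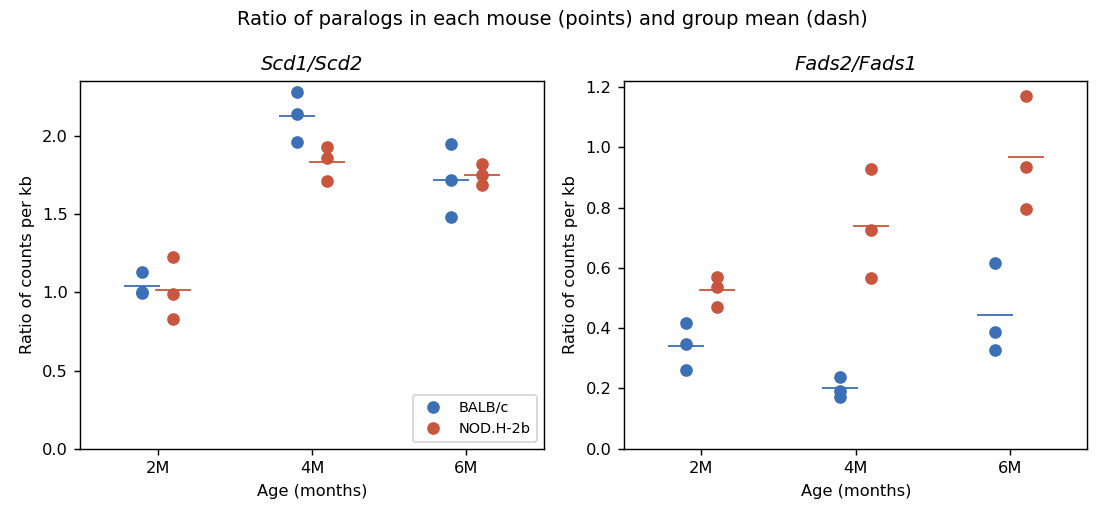
Ratio of counts per kb of exon (y axis, from 0) for Scd1 over Scd2 (left) and Fads2 over Fads1 (right) by age in months (x axis); points are mice, blue BALB/c and red NOD.H-2b, and dashes are group means. The Scd1 to Scd2 ratio is at or under 1.23 in all mice at 2M and at or above 1.48 in all later mice of both strains, and the Fads2 to Fads1 ratio reaches 1.17 in a NOD.H-2b mouse of 6M.

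Fads2 had the largest strain difference of the 10 genes at each age, and Fads1 was higher in NOD.H-2b as well. Fads1 (ENSMUSG00000010663, 10182888 to 10196877, plus strand) and Fads2 (ENSMUSG00000024665, 10062765 to 10101746, minus strand) lie head to head on chromosome 19 with 81.1 kb between them, and Fads3 follows 2.7 kb from Fads2. Fads2 carries out the first and rate-limiting desaturation of linoleic and alpha-linolenic acid, and Fads1 the later step that gives arachidonic acid. Fads2 was at 0.535, 0.628 and 0.353 CPM in BALB/c at 2M (20 to 35 counts) and at 1.18, 1.34 and 1.10 in NOD.H-2b. At 4M it was at 0.295, 0.345 and 0.403 against 3.12, 2.18 and 2.02, and at 6M at 0.536, 0.809 and 0.538 against 3.20, 2.62 and 3.26. The lowest NOD.H-2b mouse was above the highest BALB/c mouse at every age. The strain difference was 1.30 (SE 0.29), 2.80 (SE 0.28) and 2.32 (SE 0.23).

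Fads1 was at 2.25, 2.21 and 1.97 CPM in BALB/c and at 3.22, 3.44 and 3.41 in NOD.H-2b at 2M, at 2.49, 2.11 and 3.07 against 4.90, 4.39 and 5.22 at 4M, and at 2.03, 1.92 and 2.38 against 5, 4.81 and 4.07 at 6M. It did not overlap at any age, and its strain difference was 0.69 (SE 0.15), 0.92 (SE 0.18) and 1.17 (SE 0.16), smaller than that of Fads2 at each age. The ratio of Fads2 to Fads1, each per kb, was higher in NOD.H-2b: it ranged from 0.173 to 0.617 in BALB/c mice and from 0.471 to 1.17 in NOD.H-2b mice, and at each age the strains did not overlap.

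Subtracting the median of the epithelial markers shifts all genes of an age by the same amount. At 6M it gave log2 differences of -0.17 for Acly, 0.09 for Acaca, -0.38 for Fasn, -0.28 for Scd1 and -0.31 for Scd2. It gave 0.80 for Elovl1, 1.68 for Elovl5, 1.23 for Elovl6, 1.64 for Fads1 and 2.78 for Fads2. Acaca changed sign at every age (-0.20 at 2M, 0.24 at 4M) and Fasn at 4M (0.14).

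**Figure D3:**
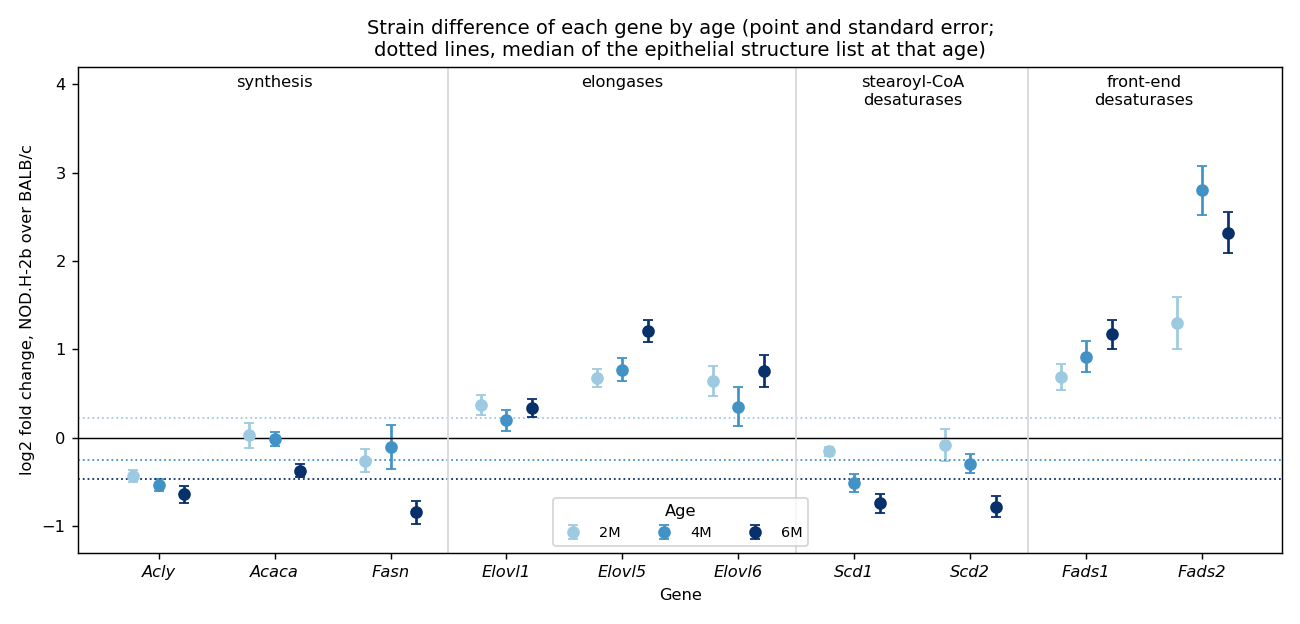
Log2 fold change of NOD.H-2b over BALB/c (y axis) for each gene (x axis, grouped by role) at 2M, 4M and 6M (light to dark); points are the estimate from 3 mice a strain, bars its standard error, and dotted lines the median of the 25 epithelial markers at that age (0.23, -0.25 and -0.46). At 6M the values run from -0.84 (Fasn) to 2.32 (Fads2), with the synthesis genes and stearoyl-CoA desaturases below 0 and the elongases and front-end desaturases above it.

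Change with age within each strain was not used to choose the genes and was tested, in the same mice. In BALB/c, Scd1 and Elovl5 rose and Acly fell from 2M to 4M, so 2 of the 10 genes were called higher and 1 lower, beside 6.1% and 5.01% of all genes tested. Scd1 rose by 0.92 in log2 fold change (SE 0.093, FDR = 0.00101), Elovl5 by 0.37 (SE 0.11, FDR = 0.0426), and Acly fell by 0.16 (SE 0.047, FDR = 0.0455). From 2M to 6M, 2 genes rose and none fell, beside 3.48% and 2.13% of all genes: Scd1 by 0.98 (SE 0.054, FDR = 1.38e-06) and Elovl5 by 0.47 (SE 0.10, FDR = 0.0218). From 4M to 6M edgeR called 0 of the 10 genes, beside 0.307% of all genes called at the same FDR threshold. DESeq2 called 1, Scd2, and the share of all genes called by DESeq2 was not counted. In edgeR, Scd2 and Fads2 had an unadjusted p under 0.05. The share of all genes at that level was not counted, so this shows no excess among the 10 genes. Scd1 remained called in both BALB/c comparisons with any mouse left out. The call of Acly was lost without any of the 6 mice (FDR 0.055 to 0.185). The call of Elovl5 from 2M to 4M was lost without each mouse but replicate 1 of 4M (FDR 0.0613 to 0.159), and its call from 2M to 6M without replicate 1 or 3 of 2M or replicate 2 of 6M (FDR 0.0895 to 0.108). Acaca was called from 2M to 4M and from 2M to 6M when replicate 1 of 2M was left out (log2 fold changes of 0.48 and 0.54, FDR = 0.00519 and 0.00758, against 0.33 and 0.39, FDR = 0.118 and 0.0761, with it), and Elovl1 from 2M to 6M when replicate 3 of 6M was left out (log2 fold change of -0.36, FDR = 0.0241, against -0.33, FDR = 0.0602).

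In NOD.H-2b, the calls were as follows. From 2M to 4M, 4 of the 10 genes rose and 0 fell, beside 10.3% and 5.48% of all genes tested: Fads2 by 1.02 (SE 0.23, FDR = 0.023), Scd1 by 0.60 (SE 0.074, FDR = 0.00469), Fads1 by 0.53 (SE 0.13, FDR = 0.0316) and Elovl5 by 0.49 (SE 0.13, FDR = 0.0371). From 2M to 6M, 4 rose and 3 fell, beside 20.7% and 19.4% of all genes. Fads2 rose by 1.31 (SE 0.18, FDR = 0.00121), Elovl5 by 1.00 (SE 0.12, FDR = 0.000759), Fads1 by 0.45 (SE 0.13, FDR = 0.0269) and Scd1 by 0.39 (SE 0.10, FDR = 0.0157). Fasn fell by 0.50 (SE 0.16, FDR = 0.0379), Elovl1 by 0.37 (SE 0.12, FDR = 0.0339) and Acly by 0.35 (SE 0.10, FDR = 0.0243). In the same comparison 21 of the 25 epithelial markers were called lower, with a median log2 fold change of -0.60, and their part in these values was not tested. From 4M to 6M edgeR called 0 of the 10 genes, beside 0.00555% of all genes called at the same FDR threshold. DESeq2 also called 0. In edgeR, Acaca, Fasn, Elovl5 and Elovl6 had an unadjusted p under 0.05. The share of all genes at that level was not counted, so this shows no excess among the 10 genes.

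With any single NOD.H-2b mouse left out, Scd1 from 2M to 4M and Fads2 and Elovl5 from 2M to 6M remained called. From 2M to 4M, Fads2 was lost without replicate 1 or 3 of 2M or replicate 1 of 4M (FDR 0.0601 to 0.0933), Fads1 without each mouse but replicate 2 of 4M (FDR 0.0638 to 0.119), and Elovl5 without replicate 1 or 3 of 2M or replicate 1 or 2 of 4M (FDR 0.0501 to 0.136). From 2M to 6M, Acly and Fasn were lost without replicate 1 or 3 of either age (FDR 0.0525 to 0.104 and 0.0941 to 0.137), Elovl1 without each mouse but replicate 2 of 2M (FDR 0.0669 to 0.135), Fads1 without replicate 1 or 3 of 2M or replicate 1 or 2 of 6M (FDR 0.0608 to 0.0835), and Scd1 without replicate 2 or 3 of 2M (FDR = 0.0639 and 0.0546). Leaving out replicate 2 of 2M added Acly (FDR = 0.043) and Elovl1 (FDR = 0.0453) from 2M to 4M and Scd2 from 2M to 6M (log2 fold change of -0.58, FDR = 0.0173), leaving out replicate 1 of 2M added Acaca from 2M to 4M (FDR = 0.0424), and leaving out replicate 1 of 4M added Elovl5 from 4M to 6M (FDR = 0.0454).

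**Figure D4:**
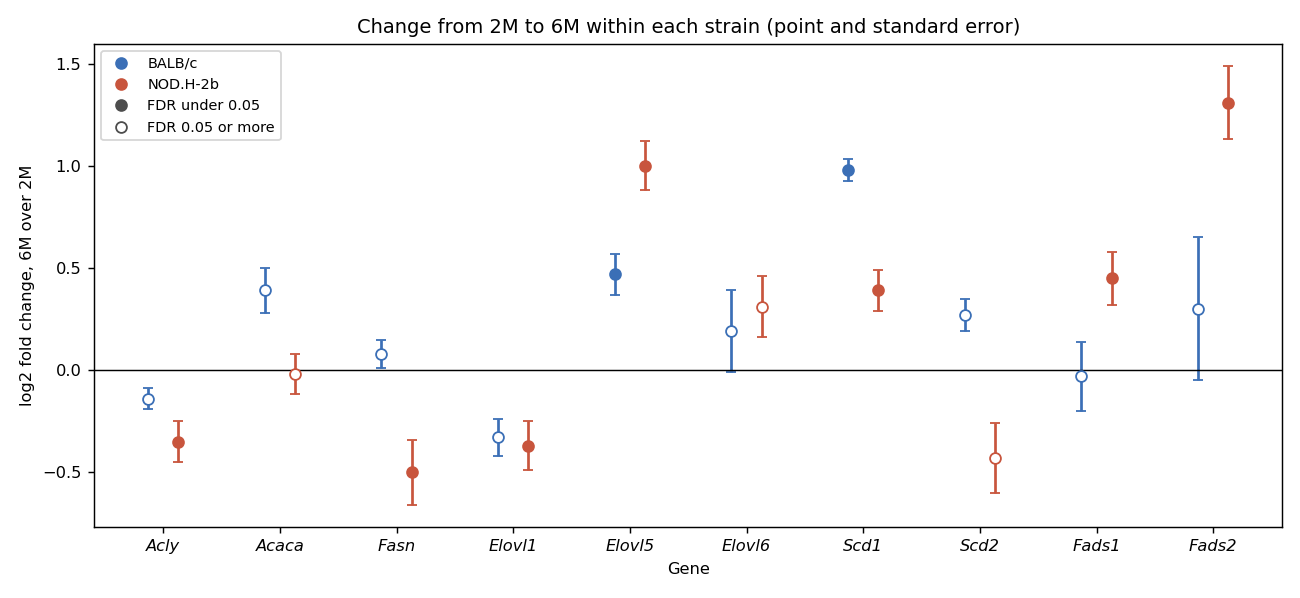
Log2 fold change from 2M to 6M (y axis) of each gene (x axis) within BALB/c (blue) and NOD.H-2b (red); points are estimates from 3 mice an age, bars standard errors, and filled points have an FDR under 0.05 (edgeR). Scd1 rises by 0.98 in BALB/c and by 0.39 in NOD.H-2b, while Fads2 and Elovl5 rise most in NOD.H-2b.

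The difference between the strains in the change from 2M to 6M was called for 3 of the 10 genes, 1 higher and 2 lower, beside 7.04% and 9.09% of all genes tested. This contrast equals the strain difference at 6M less that at 2M, values that had chosen the genes, so its FDRs are not independent evidence for them. Scd1 rose less in NOD.H-2b, with a difference of -0.58 (SE 0.13, FDR = 0.00717), and this call was kept in all 25 alternatives. Scd2 differed by -0.70 (SE 0.21, FDR = 0.0386), where the changes within BALB/c (0.27) and NOD.H-2b (-0.43) were not called by themselves. Elovl5 rose more in NOD.H-2b, with a difference of 0.54 (SE 0.18, FDR = 0.0439). For Fads2 the difference of 1.02 (SE 0.35, FDR = 0.0547) missed the threshold, and for Fasn (-0.57, SE 0.28), Fads1 (0.49, SE 0.21), Acaca (-0.40, SE 0.15), Acly (-0.20, SE 0.11), Elovl6 (0.13, SE 0.25) and Elovl1 (-0.03, SE 0.16) it did as well. In the same comparison 17 of 25 epithelial markers were called lower, with a median of -0.59. Scd2 was lost without replicate 2 or 3 of BALB/c 2M, replicate 1 of BALB/c 6M, or replicate 1 or 3 of NOD.H-2b 2M or 6M (FDR 0.0548 to 0.12). Elovl5 was lost without any of 13 mice (FDR 0.0507 to 0.136), namely all 9 BALB/c mice and replicates 1 and 3 of NOD.H-2b 2M and 6M. Fads2 was called without replicate 3 of BALB/c 2M, replicate 2 of BALB/c 6M, replicate 1 of NOD.H-2b 4M or replicate 2 of NOD.H-2b 6M (FDR 0.0351 to 0.0459). Acaca was called without replicate 1 of BALB/c 2M, 1 of BALB/c 4M, 3 of BALB/c 6M or 2 of NOD.H-2b 2M (FDR 0.0108 to 0.049).

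Beyond the 10 genes, 75 other genes of the pathway were listed by role, and more of them were lower than higher in NOD.H-2b at every age. At 2M, 14 of the 69 that could be tested were called higher and 20 lower, beside 22.5% and 17.2% of all genes. At 4M, 12 of 69 were higher and 27 lower (23.4% and 19.2% of all genes), and at 6M, 12 of 70 were higher and 37 lower (28.6% and 25.8%). The median log2 fold change of these lists was -0.08, -0.20 and -0.29 at the 3 ages, beside 0.01, 0 and 0 over all genes. The lists were chosen with earlier results of these data known, and the pathway had been said to fall in NOD.H-2b. These counts and the calls of pathway genes below are therefore not independent evidence of a fall.

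Genes that supply acetyl-CoA and NADPH were lower in NOD.H-2b. At 6M all 7 genes of that list were called lower, against 4 lower and 1 higher at 2M. Me1, the malic enzyme that supplies NADPH, ranged from 83.1 to 92.1 CPM in BALB/c and from 12.7 to 19.9 in NOD.H-2b at 6M, and its strain difference went from -1.35 (SE 0.065, FDR = 4.52e-08) at 2M to -2.34 (SE 0.15, FDR = 3.8e-06) at 6M, a change called in the strain by age test (-0.98, SE 0.20, FDR = 0.00558). Acss2, which makes acetyl-CoA from acetate, ranged from 24.9 to 27.8 CPM in BALB/c and from 6.19 to 7.92 in NOD.H-2b at 6M (log2 fold change of -1.92, SE 0.11, FDR = 8.1e-07). Idh1, another NADPH source, was lower by a mean of -0.63 over the 3 ages.

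Among the partners of synthesis, 1 of 7 tested genes was called lower at 2M and 4 of 7 at 6M, and none was called higher. Acacb, the acetyl-CoA carboxylase at mitochondria that governs entry of fatty acids for oxidation, ranged from 50.9 to 56.3 CPM in BALB/c and from 28 to 39 in NOD.H-2b at 2M. At 6M it ranged from 55.4 to 70.3 against 8.86 to 10.9 CPM, a log2 difference of -2.65 (SE 0.11, FDR = 1.5e-07), and its strain by age difference was -2.08 (SE 0.23, FDR = 0.00033). Among acyl-CoA synthetases, which activate fatty acids, Acsl1 was lower at all ages (mean log2 fold change -0.82). Acsl4 (mean -0.32) and Acsl5 (mean 0.24) were called in opposite directions, most of these calls by small margins. At 2M Acsl5 (log2 fold change of 0.27, FDR = 0.00158) kept its call with any mouse left out. With 1 mouse left out, Acsl4 lost its call for 5 of the 6 mice at 2M (all but NOD.H-2b replicate 1), for 5 at 4M (all but NOD.H-2b replicate 1) and for 4 at 6M (replicates 2 and 3 of both strains), with an FDR of at most 0.139, and Acsl5 lost it for 5 at 4M (all but NOD.H-2b replicate 1) and for 3 at 6M (BALB/c replicates 1 and 2 and NOD.H-2b replicate 3), with an FDR of at most 0.146.

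The other elongases were nearly silent. Elovl3 had no count in any mouse and Elovl2 and Elovl4 at most 5, so that Elovl7 alone was tested, and it was higher in NOD.H-2b at all ages (2.18, 1.25 and 1.62, with an FDR of 7.38e-06, 0.00611 and 0.000639). It ranged from 0.61 to 0.707 CPM in BALB/c and from 2.61 to 3.25 in NOD.H-2b at 2M. Of the 6 enzymes that complete each elongation round, 2 were called lower and 1 higher (Hacd4, 0.99, FDR = 0.00561) at 2M, and 4 lower and 0 higher at 6M, where Hacd4 (0.30) and Hacd1 (-0.65) were not called. Hacd2, the dehydratase of that cycle, was lower at all ages (mean -0.59), but at 4M its call was lost without replicate 1 or 3 of BALB/c (FDR = 0.0544 and 0.0872).

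Of the other desaturases and their electron donors, 2 of 9 were called higher and 2 lower at 2M and 2 higher and 3 lower at 6M. Degs2, a desaturase of sphingolipids, had no counts in any BALB/c mouse at 2M and 201 to 278 counts in NOD.H-2b mice, so that it was at least 66.4-fold higher against a floor of 3 counts per library. At 6M it had at most 1 count in BALB/c and 28 to 45 counts in NOD.H-2b. Cyb5r3, the reductase that passes electrons to the desaturases, was lower at all ages (mean -0.48). The neighbor of Fads2, Fads3, was not called at 2M (0.50, FDR = 0.191) and was higher at 4M (1.13, FDR = 0.0139) and 6M (1.38, FDR = 0.00141). Scd3, which lies 150.4 kb from Scd1 on chromosome 19, was lower at 4M (-1.27, FDR = 0.00603) and 6M (-1.10, FDR = 0.00864).

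Among 18 regulators, 2 were called higher and 5 lower at 2M and 2 higher and 10 lower at 6M. Srebf1, the transcription factor that drives lipogenic genes, ranged from 133 to 157 CPM in BALB/c and from 76.4 to 105 in NOD.H-2b at 2M, and from 164 to 215 against 73 to 87 at 6M. Its strain difference was -0.64 (SE 0.11, FDR = 0.00408) at 2M, -0.79 (SE 0.081, FDR = 5.97e-05) at 4M and -1.20 (SE 0.11, FDR = 1.58e-05) at 6M, with a strain by age difference of -0.55 (SE 0.16, FDR = 0.0266). Mlxipl, the carbohydrate response factor, was lower (mean -1.06), and Nr1h3, the oxysterol receptor that also acts in macrophages, was higher (mean 1.41) at all ages.

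Genes of glycerolipid synthesis were mixed, with 4 of 12 called higher and 3 lower at 2M and 4 higher and 5 lower at 6M. The acyltransferases Gpat3 and Gpat4, which both start glycerolipid synthesis, were called in opposite directions: Gpat3 was lower by a mean of -1.41 and Gpat4 higher by a mean of 0.89 over the ages. Plin2, which coats lipid droplets, was higher at all ages (mean 0.76), but at 4M the call was lost without replicate 1 or 2 of BALB/c or replicate 2 or 3 of NOD.H-2b (FDR 0.0719 to 0.125). Of 6 genes that handle polyunsaturated acids, 2 were called higher and 2 lower at 6M, led by Fabp5, a fatty acid carrier (mean 2.86), and Hsd17b4, an enzyme of peroxisomal oxidation (mean -0.46).

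**Figure D5:**
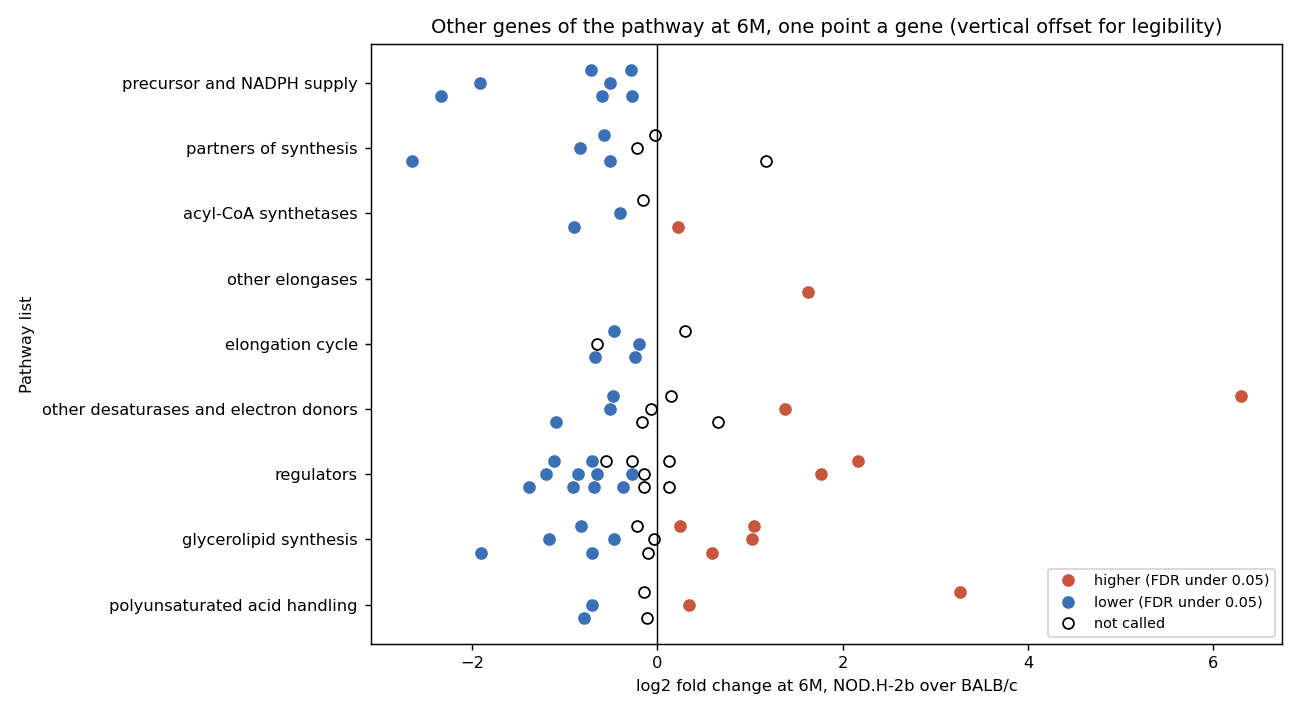
Log2 fold change at 6M, NOD.H-2b over BALB/c (x axis), of the 70 tested genes of the 9 pathway lists (y axis); each point is a gene, red and blue points have an FDR under 0.05 (edgeR), open points do not. All 7 points of precursor and NADPH supply lie below 0, and the point farthest to the right is Degs2, whose fitted value depends on the prior count since BALB/c held at most 1 count.

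Fads2 and Fasn differed in the genes whose levels resembled theirs over the 18 mice, among the 7922 genes whose log2 CPM averaged 3 or more. Fads2 was most like Nfkbiz (Pearson's r = 0.976 of log2 CPM), Cdc42se2 (0.974), Fam111a (0.971), Apbb1ip (0.970) and Rap1b (0.968), each of which was above BALB/c in every NOD.H-2b mouse of 6M, and with the group means removed these correlations were 0.631, 0.684, 0.649, 0.807 and 0.543. Fasn was most like Ninj1 (0.944), Gal3st2 (0.916) and Ankrd13b (0.915), with 0.869, 0.860 and 0.883 after removal of the group means. Within the groups, Fads2 followed Elovl5 (r = 0.827 over 18 mice) and not its neighbor Fads1 (0.0814), and Fasn followed Scd2 (0.746). Over the 9 mice of a strain, with the age differences kept, Fads2 and Fads1 correlated at 0.801 in NOD.H-2b and -0.363 in BALB/c. The mice of a group share strain and age but not cell composition (B cell markers ran from 301 to 604 CPM within NOD.H-2b of 6M), and the part of that in these correlations was not tested. These values are a description.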

How the data were processed

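Total RNA of 18 LGs, 1 LG from each male mouse, was depleted of ribosomal RNA and sequenced in read pairs. The deposited values are raw counts per gene, for which the authors, per the labels and the study's methods, used cutadapt for trimming, STAR for alignment to GRCm38 and HTSeq for counting. Tool versions, the gene annotation, how strand was handled and what was done with multiply mapped reads are not given in the sources used here, and the library kit does not mark strand. A second deposited table of log2 values made from the same counts was not used. The file held 54232 genes, and the totals ranged from 49480781 to 103936830 counts per mouse. Replicates were not duplicates of 1 library: their chi-square per gene was 15.5 to 84.4, above sampling noise.

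Groups came from the strain and age labels. The 10 genes and all gene lists were chosen with earlier results of these data known, and the strain difference had chosen the 10 genes, so it is given for them without a test. Their age comparisons use the same mice, and the strain by age contrast is the difference of 2 such strain values. Counts were tested with edgeR 4.0.16 in R 4.3.3 (TMM normalization, filterByExpr, robust quasi-likelihood test) on the 6 mice of each comparison, with Benjamini-Hochberg adjustment (FDR) over all genes tested and a call at FDR under 0.05. The difference of the age changes between strains was taken from 1 fit of all 18 mice. The standard error is the absolute log2 fold change over the square root of F. Levels are CPM with TMM over 18 mice, and per-length levels are CPM per kb of exon in GENCODE M21. The correlations used log2 CPM with a prior count of 2. Genes named outside the 10 are, from each pathway list, up to 3 genes with the largest mean strain difference among those called in 1 direction at all ages, and the genes whose log2 CPM correlated best with Fads2 (5 genes) or Fasn (3 genes) among genes averaging 3 or more in log2 CPM. Other genes named were chosen after their values were seen. Shared sequence was searched in windows of 75 bases, and promoters are the 250 bases before each RefSeq start. The steps were tested on simulated data. Alternatives were other normalizations, no filter, at least 10 counts in every sample, the DESeq2 1.42.0 Wald test, 1 fit of all 18 mice, the replicate number as a block, subtraction of the epithelial structure list (strain differences only) and leaving out each mouse. Replicate numbers were not treated as pairs: in 0 of 9 comparisons did every same-numbered pair deviate together (r over 0.1). For single pairs r ranged from -0.3 to 0.298, and this cutoff cannot exclude a weaker pairing.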

Additional observations from a re-analysis of the deposited data

Results flagged for a closer look

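The change from 2M to 6M differed between the strains for 3 of the 10 genes, by the test of that difference in 1 edgeR fit of all 18 mice. The contrast is built from the strain differences at 2M and 6M, which had chosen the genes, so it is not independent evidence for them. The difference, NOD.H-2b less BALB/c in log2 fold change, was -0.58 for Scd1 (FDR = 0.00717), -0.70 for Scd2 (FDR = 0.0386) and 0.54 for Elovl5 (FDR = 0.0439). Scd1 kept its call with any mouse left out, while Scd2 lost it without any of 7 mice (FDR up to 0.12) and Elovl5 without any of 13 (FDR up to 0.136). The median of the 25 epithelial markers in the same test was -0.59, and its part in these differences was not tested.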

How the results depend on the processing

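Of 1030 values tested under alternatives, 1013 did not reverse in sign. A value that rounded to 0, in the main test or the alternative, was counted among these. For Fasn from 2M to 4M in BALB/c the main value was 0 and the alternatives ranged from -0.09 to 0.10. None of the 17 that reversed had been called. Under at least 10 counts in every sample, these were Acaca (0.02) for NOD.H-2b from 2M to 6M and Elovl1 in the strain by age test (0.02). The others reversed with 1 mouse left out. Over all alternatives, the log2 fold change ranged from -0.07 to 0.10 for Acaca and from -0.16 to 0.04 for Elovl1 in the same tests. It ranged from -0.13 to 0.02 for Fads1 (BALB/c, 2M to 6M) and from -0.09 to 0.37 for Fasn (NOD.H-2b, 2M to 4M). From 4M to 6M it ranged in BALB/c from -0.02 to 0.17 for Fasn, -0.04 to 0.15 for Scd1, -0.01 to 0.04 for Acly and -0.17 to 0.19 for Elovl6, and in NOD.H-2b from -0.10 to 0.02 for Elovl1 and -0.12 to 0.03 for Fads1. Relative to the epithelial list, which shifts every gene of an age alike, the strain difference of Acaca changed sign at 2M (-0.20), 4M (0.24) and 6M (0.09) and that of Fasn at 4M (0.14).

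From 2M to 4M in BALB/c, 1 gene was called in the fit of all 18 mice in place of 3. From 4M to 6M, 1 was called without the filter and 1 by DESeq2 in BALB/c, and 1 in the fit of all 18 mice in NOD.H-2b, where 0 had been. From 2M to 6M in BALB/c, 5 were called without the filter and 5 by DESeq2, in place of 2. The share of all genes called was not counted under any alternative, including the replicate block and the mice left out below. Whether a shift in these counts concerns these genes or genes in general therefore cannot be told. The cause was not tested. The replicate numbers were not treated as pairs in the main tests. With the replicate number as a block, the calls were 1 (2M to 4M) and 4 (2M to 6M) in BALB/c, 1 (2M to 4M), 1 (4M to 6M) and 2 (2M to 6M) in NOD.H-2b, and 1 in the strain by age test, and 34, 37 and 46 pathway genes were called between strains at 2M, 4M and 6M.

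With 1 mouse left out, 1 to 2, 0 and 1 to 3 genes were called from 2M to 4M, 4M to 6M and 2M to 6M in BALB/c, 1 to 5, 0 to 1 and 2 to 7 in NOD.H-2b (the 1 without replicate 1 of 4M, and the 2 without replicate 3 of 2M), and 1 to 4 in the strain by age test. Between strains, 31 to 34, 31 to 38 and 42 to 48 pathway genes were called at 2M, 4M and 6M. Of the 10 genes, 6 to 7, 5 to 7 and 10 did not overlap at these ages. Leaving out a mouse can only keep or raise such a number, so it is no check of the strain difference. With 3 mice a group, most age calls were close to the threshold and were lost when any of several mice was left out. The 16 to 50 counts of Fads2 in BALB/c limit its age change there (0.30, SE 0.35).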
